A study of Mus musculus with 12 samples.

Results

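The genes described here are 10 that act between the cutting of cytosolic proteins and the loading of the peptides onto MHC class I molecules: Tap1, Tap2, Tapbp, Erap1, Nlrc5, Psmb8, Psmb9, Psmb10, Psme1 and Psme2. They were taken by mouse symbol from a list of gene names. All 10 were found in both gene tables, among 30803 Ensembl genes listed for the GSH and WT libraries and 17558 symbols listed for the Cas9 and Ctrl libraries. The RNA came from samples whose labels give 4T1, a mouse mammary carcinoma line of BALB/c origin, kept in culture in serum-containing medium. The groups are named by genotype as GSH, WT, Cas9 and Ctrl, and the design text pairs GSH with WT and Cas9 with Ctrl. The labels do not expand GSH, name no gene targeted with Cas9, and list no drug, cytokine or host animal for any group. Of 12 labelled samples, 10 libraries were used, which were 3 GSH, 3 WT, 3 Cas9 and 1 Ctrl (Ctrl 3), and the remaining Ctrl samples were not analysed here. Nothing in the labels says whether the replicates of a group were grown apart, so the spread behind each p-value is that of these libraries and may be technical.

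Cytosolic proteins are cut by the proteasome, and the peptides are pumped into the endoplasmic reticulum by the transporter that Tap1 and Tap2 encode. Tapasin, the product of Tapbp, holds empty class I molecules at this transporter, and the aminopeptidase Erap1 trims peptides in the endoplasmic reticulum. In cells exposed to interferon gamma, and in most leukocytes at rest, the catalytic subunits Psmb8, Psmb9 and Psmb10 take the places of Psmb5, Psmb6 and Psmb7 to form the immunoproteasome. Psme1 and Psme2 encode the alpha and beta subunits of the PA28 cap, which opens the proteasome core, and Nlrc5 encodes a transactivator of class I genes and of several genes in this list.

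Psmb9, Tap1, Psmb8 and Tap2 are neighbours in that order on chromosome 17, in the class II region of the MHC, and Tapbp lies elsewhere on the same chromosome. Psme1 and Psme2 lie on chromosome 14 with Emc9 between them, Psmb10 and Nlrc5 lie on chromosome 8, and Erap1 lies on chromosome 13. Promoter sequence was available for 8 of the 10, from RefSeq on build GRCm38.p6; Tap2 and Nlrc5 had no entry. The starts of Psmb9 and Tap1 face away from each other with 225 bases between them, so the pair shares an upstream region although their levels differed widely. That interval is shown with the 250 bases before the starts of 3 other members: Psmb8, an inducible subunit whose level differed widely between the tables, Tapbp, the most abundant loading gene, and Psmb10, the 1 member called higher in GSH libraries. Capitals mark 4 motifs searched on both strands: the interferon-stimulated response element, the STAT element TTCNNNGAA, the CCAAT box and the GC box GGGCGG. The response element was searched only as GAAA repeated exactly at 1 fixed spacing.
Psmb9 to Tap1 interval, chr17:34187331-34187555, plus strand: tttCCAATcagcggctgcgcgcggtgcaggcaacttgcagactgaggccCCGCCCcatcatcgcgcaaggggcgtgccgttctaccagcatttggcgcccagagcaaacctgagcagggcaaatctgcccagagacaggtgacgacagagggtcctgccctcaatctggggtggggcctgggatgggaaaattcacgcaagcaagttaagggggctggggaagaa
Psmb8, chr17:34197945-34198194, plus strand: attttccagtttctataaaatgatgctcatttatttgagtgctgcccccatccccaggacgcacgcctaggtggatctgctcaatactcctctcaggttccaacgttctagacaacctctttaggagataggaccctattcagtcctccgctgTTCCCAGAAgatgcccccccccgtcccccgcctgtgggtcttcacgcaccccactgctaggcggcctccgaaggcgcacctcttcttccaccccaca
Tapbp, chr17:33919228-33919477, plus strand: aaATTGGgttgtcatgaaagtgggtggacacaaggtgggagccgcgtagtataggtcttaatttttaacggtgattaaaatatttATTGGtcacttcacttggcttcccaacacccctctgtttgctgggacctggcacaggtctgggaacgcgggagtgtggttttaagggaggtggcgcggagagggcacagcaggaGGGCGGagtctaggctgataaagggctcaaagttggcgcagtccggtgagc
Psmb10, chr8:105938393-105938642, minus strand: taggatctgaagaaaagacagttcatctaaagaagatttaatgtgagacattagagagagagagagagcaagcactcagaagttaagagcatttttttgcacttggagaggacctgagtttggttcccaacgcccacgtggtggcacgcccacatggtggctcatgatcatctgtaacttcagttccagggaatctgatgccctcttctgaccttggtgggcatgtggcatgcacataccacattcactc
The interval between Psmb9 and Tap1 held a CCAAT box, 222 bases before the Tap1 start, and a GC box, 176 bases before it. The Psmb8 window held the STAT element as TTCCCAGAA, 97 bases before the start. That letter pattern was found in 1 of the 8 genes with an entry and in 7.02% of 32851 RefSeq windows of 250 bases. The Tapbp window held 2 CCAAT boxes and a GC box, and the Psmb10 window held none of the 4 motifs. The CCAAT box was found for 3 of the 8 genes and in 33.8% of windows, and the GC box for 5 of the 8 and in 32.7%. The Psmb9 and Tap1 windows overlap, so both counts take the same site in the interval for both genes. The exact form of the interferon response element was found for 0 of the 8 and in 2.98% of windows. Looser forms of it were not searched for, so their absence is not shown. All these counts are of matches of letters in short windows, and they say nothing of a factor's binding.

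Depth was 18531444 to 30168737 reads in GSH libraries, 20297490 to 21954133 in WT libraries, 33152215 to 35742818 in Cas9 libraries and 39201544 in Ctrl 3. The deposited values were FPKM, fragments scaled to gene length and library size, and whole reads recovered from their steps gave RPM, which here are those reads relative to each library's total. Of 22 leukocyte markers, 22 were above 0 in each Cas9 library and 21 in Ctrl 3, with summed levels of 4644 to 9698 RPM in Cas9 libraries and 8304 RPM in Ctrl 3. For GSH and WT libraries, 21 of the markers were listed, 15 to 20 of them above 0 in GSH libraries and 13 to 18 in WT libraries, with summed levels of 36.4 to 57.4 RPM in GSH libraries and 38.9 to 42.7 RPM in WT libraries. Ptprc, the pan-leukocyte antigen CD45, was at 0.0295 to 0.0405 FPKM in GSH libraries and 0.0174 to 0.0407 FPKM in WT libraries, and Cd3d, Cd8a and Nkg7 were at 0 in all 3 WT libraries. The 8 epithelial markers summed to 2886 to 5064 RPM in Cas9 libraries, 3900 RPM in Ctrl 3, 4404 to 4552 RPM in GSH libraries and 4168 to 4304 RPM in WT libraries. The labels give cultured carcinoma cells for all 4 groups, so the leukocyte transcripts of the Cas9 and Ctrl libraries go against their labels. Transcripts of nasal and lacrimal secretory genes (27 genes of the Obp, Mup, Scgb and Bpif families) stood at 437 RPM in GSH 2, 350 RPM in GSH 3 and 331 RPM in WT 3, and at 3.6 to 32.2 RPM in GSH 1, WT 1 and WT 2. Reads of the mitochondrial genome made up 5.72% to 6.1% of GSH libraries and 8.17% to 8.48% of WT libraries.

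The 10 genes were all expressed at higher levels in the Cas9 and Ctrl libraries than in the GSH and WT libraries, and the immunoproteasome subunits Psmb9 and Psmb8 stood furthest apart. Psmb9, the subunit that replaces Psmb6, stood at 140, 152 and 151 RPM in Cas9 libraries and 106 RPM in Ctrl 3. It stood at 0.663, 0.9 and 0.486 RPM in GSH libraries and 0.455, 0.985 and 0.746 RPM in WT libraries. In reads, that was 9 to 20 per GSH library and 10 to 20 per WT library, against 4173 to 5221 in Cas9 and Ctrl libraries. The ranges of the tables are far apart, and within the GSH and WT table the groups overlap. The median over the Cas9 and Ctrl libraries was 207 times the median over the GSH and WT libraries for Psmb9, 91.5 times for Psmb8 and 25.8 times for Tap1. For the other members it was 9.68 times for Psmb10, 9.21 for Psme1, 8.12 for Psme2, 6.9 for Nlrc5, 4.36 for Tap2, 3.54 for Tapbp and 3.39 for Erap1. The same fold was 1.12 for the median of 12750 genes with reads at the median of both tables and a minimum level in either. It was above 3 for 10 of the 10 members and for 19.3% of these genes. It was above 50 for 2 members and 4.62% of these genes. Genes without reads at the median of either table were left out. That includes any expressed in the Cas9 and Ctrl libraries alone, so these shares may be too low. No test was made between the tables, which were made separately and differ in many unstated ways.

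Other genes of the pathway are given on the same scale. The constitutive subunits differed little, with folds of 1.14 for Psmb5, 1.41 for Psmb6 and 2.17 for Psmb7. B2m, which encodes the invariant class I light chain, had a fold of 4.71, and the interferon-induced factor Irf1 had 8.62. For Ptprc, a single leukocyte marker named after its value was seen, the fold was 204. The summed leukocyte markers were also higher in the Cas9 and Ctrl libraries than in the GSH and WT libraries. Their part in the members' folds was not tested. In bulk RNA, more cells of a type and more RNA per cell cannot be told apart.

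**Figure D1:**
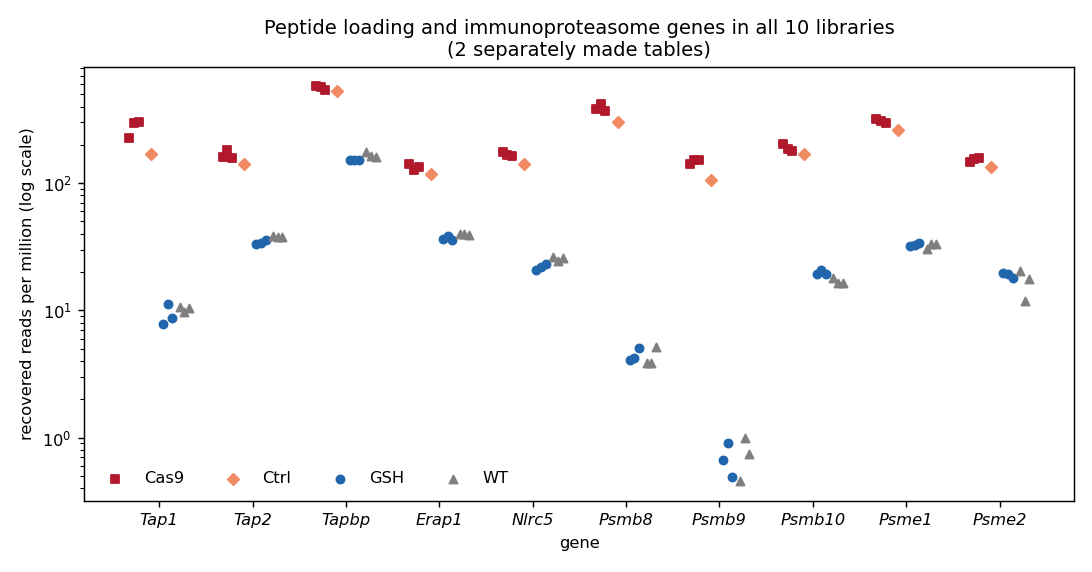
RPM (log scale) of the 10 genes in 3 Cas9, 1 Ctrl, 3 GSH and 3 WT libraries, 1 point per library. Every Cas9 and Ctrl point lies above every GSH and WT point of the same gene, with medians 3.39 (Erap1) to 207 (Psmb9) times apart.

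Set against gene length, the order of the members also differed between the tables. The authors' tables used different lengths for the same gene, 3660 bases in the GSH and WT table and 1110 bases in the Cas9 and Ctrl table for Psmb9, so levels were put on the lengths of the Cas9 and Ctrl table. On that scale of RPM per kilobase, the medians over the 6 GSH and WT libraries were 57.2 for Tapbp, 33.7 for Psme1, 19 for Psme2, 14.8 for Tap2 and 14.7 for Psmb10. They were 6.79 for Erap1, 3.52 for Tap1, 3.38 for Psmb8, 3.02 for Nlrc5 and 0.635 for Psmb9. Ranges over libraries overlapped among Psme2, Tap2 and Psmb10 and among Tap1, Psmb8 and Nlrc5, and the other neighbours in this order did not overlap. In the Cas9 and Ctrl libraries the medians were 311 for Psme1, 310 for Psmb8, 203 for Tapbp, 155 for Psme2, 142 for Psmb10 and 131 for Psmb9. They were 90.8 for Tap1, 64.5 for Tap2, 23 for Erap1 and 20.8 for Nlrc5. Ranges overlapped there between Psme1 and Psmb8, between each pair of neighbours from Psme2 down to Tap2, and between Erap1 and Nlrc5. Psmb8, low among the 10 in the GSH and WT libraries, was level with the highest in the Cas9 and Ctrl libraries.

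The inducible subunits were compared with the constitutive subunits they replace within each library, where library scaling cancels. Per length, Psmb8 stood at 5.22, 7.08 and 5.11 times Psmb5 in Cas9 libraries and 4.37 times in Ctrl 3. It stood at 0.0569, 0.0623 and 0.0795 times Psmb5 in GSH libraries and 0.071, 0.0762 and 0.0842 times in WT libraries. Psmb8 thus outnumbered its constitutive partner in the first set of libraries and was a small fraction of it in the second. The ratio of Psmb9 to Psmb6 was 0.913, 1.03 and 0.93 in Cas9 libraries and 0.8 in Ctrl 3, and it was 0.00431 to 0.00789 in GSH libraries and 0.00491 to 0.0109 in WT libraries. The ratio of Psmb10 to Psmb7 was 1.23, 1.03 and 0.762 in Cas9 libraries and 0.996 in Ctrl 3, and it was 0.206 to 0.24 in GSH libraries and 0.222 to 0.245 in WT libraries. These ratios depend on the lengths used. On the GSH and WT table's own lengths, Psmb8 stood at 0.0212 to 0.0297 times Psmb5 in GSH libraries and 0.0265 to 0.0314 times in WT libraries, and Psmb9 at 0.00218 to 0.00399 times Psmb6 in GSH libraries and 0.00248 to 0.0055 times in WT libraries. The ratio of Psmb10 to Psmb7 was then 0.497 to 0.578 in GSH libraries and 0.535 to 0.59 in WT libraries. The gap between the tables was smallest for Psmb10 on both sets of lengths. Psmb9 and Tap1, which share the interval printed above, were not at a fixed ratio: per length Psmb9 stood at 1.28 to 1.6 times Tap1 in Cas9 libraries and 1.6 times in Ctrl 3, and at 0.143 to 0.22 times in GSH libraries and 0.111 to 0.262 times in WT libraries. Over all their transcripts in GENCODE M21 the 2 genes also share 212 exon bases on opposite strands, and no source used here says whether reads were counted by strand.

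**Figure D2:**
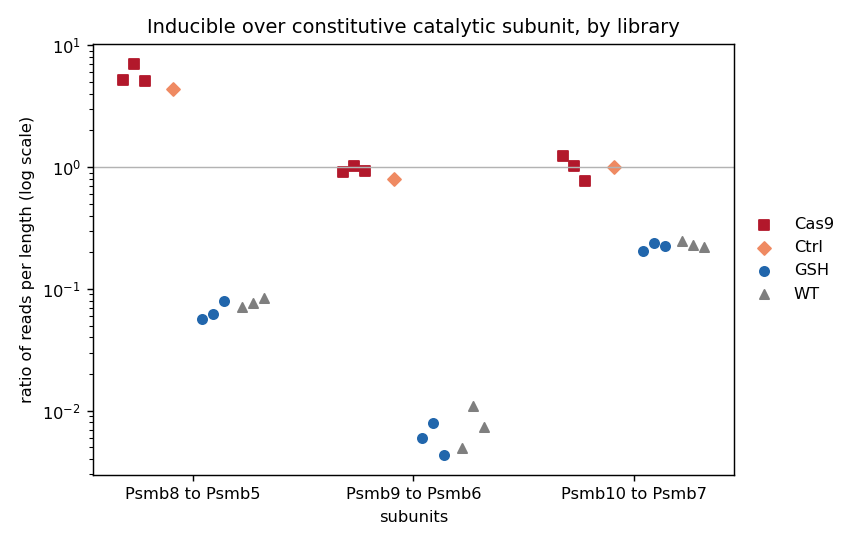
Ratio of each inducible catalytic subunit to the constitutive subunit it replaces, in reads per length (log scale, lengths of the Cas9 and Ctrl table), 1 point per library; the grey line marks a ratio of 1. Cas9 and Ctrl libraries lie near or above 1 and GSH and WT libraries at 0.245 or less on these lengths.

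The first designed comparison set GSH against WT libraries. Of the loading genes, Tap2 and Tapbp were slightly lower in GSH libraries, as was the transactivator Nlrc5, while the inducible subunit Psmb10 was slightly higher. The mean FPKM of Psmb10 was 17.2% above the WT mean, and the differences of the other 3 were smaller. By limma's moderated test on log2(FPKM + 1), adjusted by the Benjamini-Hochberg method over the 12283 genes whose mean reached 1 FPKM, with a threshold of 0.05, 3 of the 9 members tested were lower in GSH libraries and 1 was higher. The background is wide: 16.4% of all genes tested were called lower and 20.6% higher, and 47.9% had an unadjusted p under 0.05. The counts of 2014 genes lower and 2533 higher turned to 2521 lower and 1884 higher when FPKM was rescaled to the library total without mitochondrial genes, and the 4 member calls kept their direction. The median log2 change of the 9 members was -0.088, against 0.021 over all genes tested. All 3 GSH libraries lay below all 3 WT libraries for 4 members and for 23.5% of genes, and above them for 1 member and 29% of genes.

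Tap2 (ENSMUSG00000024339), part of the peptide pump, had 8.84, 8.9 and 9.48 FPKM in GSH libraries, against 10.1, 10.0 and 10.0 FPKM in WT libraries. The groups did not overlap, with means of 9.07 ± 0.352 FPKM in GSH libraries and 10.1 ± 0.0413 FPKM in WT libraries (SD, n = 3 each). The log2 change was -0.13 (SE 0.034, limma adjusted p = 0.0241). Tapbp (ENSMUSG00000024308), tapasin, had 41.5, 41.7 and 42.2 FPKM in GSH libraries, against 48.6, 44.9 and 44.6 FPKM in WT libraries. The GSH libraries were nearly identical and lay below all WT libraries, of which WT 1 was highest. The means were 41.8 ± 0.347 FPKM in GSH libraries and 46 ± 2.19 FPKM in WT libraries (SD, n = 3 each), a log2 change of -0.14 (SE 0.038, limma adjusted p = 0.0315). Tap1, the other part of the pump, had 1.42, 2.05 and 1.6 FPKM in GSH libraries, against 1.94, 1.77 and 1.92 FPKM in WT libraries. Its groups overlapped, with GSH 2 above every WT library, and its log2 change of -0.10 (SE 0.092) did not pass the limma test (adjusted p = 0.418). That change rested on single libraries, at -0.031 without GSH 1 and -0.20 without GSH 2 (limma adjusted p = 0.815 and 0.079), and it was -0.21 with voom on recovered reads (limma adjusted p = 0.186). Annotated exons of Tap2 overlap those of the predicted genes Gm15821 and Gm20496, and those of Tapbp overlap 149 exon bases of Zbtb22 on the same strand, which had 13.8 to 14.7 FPKM in GSH libraries and 12 to 13.3 FPKM in WT libraries. On opposite strands, exons of Tapbp share 904 bases with Gm19412, those of Erap1 834 with Cast and those of Psmb8 498 with Gm20496. Smaller overlaps involve Nlrc5 (78 bases) and Psme1 (14 bases).

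Nlrc5 (ENSMUSG00000074151) had 2.46, 2.57 and 2.73 FPKM in GSH libraries, against 3.07, 2.89 and 3.01 FPKM in WT libraries. The groups did not overlap, with means of 2.59 ± 0.132 FPKM in GSH libraries and 2.99 ± 0.088 FPKM in WT libraries (SD, n = 3 each). The log2 change was -0.15 (SE 0.047, limma adjusted p = 0.0426). Erap1, the trimming aminopeptidase, had 5.01, 5.24 and 4.94 FPKM in GSH libraries, against 5.47, 5.5 and 5.36 FPKM in WT libraries. Its groups did not overlap, yet the log2 change of -0.088 (SE 0.035) missed the threshold (limma adjusted p = 0.0904).

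Psmb10 (ENSMUSG00000031897) had 11.4, 12.3 and 11.3 FPKM in GSH libraries, against 10.6, 9.65 and 9.57 FPKM in WT libraries. All GSH libraries lay above all WT libraries, with means of 11.7 ± 0.532 FPKM in GSH libraries and 9.94 ± 0.576 FPKM in WT libraries (SD, n = 3 each). The log2 change was 0.21 (SE 0.05, limma adjusted p = 0.0194). Psmb8 had 1.2, 1.25 and 1.48 FPKM in GSH libraries, against 1.15, 1.15 and 1.53 FPKM in WT libraries. Its groups overlapped, and GSH 3 and WT 3 were the high library of each. Its log2 change was 0.025 (SE 0.092, limma adjusted p = 0.852). Psmb9 was below the minimum level for the test, at 0.181, 0.246 and 0.133 FPKM in GSH libraries and 0.124, 0.269 and 0.204 FPKM in WT libraries. Its reads summed to 46 over GSH libraries and 46 over WT libraries, or 0.681 RPM (95% exact Poisson interval 0.498 to 0.908) in GSH libraries and 0.722 RPM (0.529 to 0.963) in WT libraries. These intervals cover counting error only, and a difference within them was not detectable at this depth.

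The PA28 genes did not pass the test. Psme1 had 14.6, 14.8 and 15.4 FPKM in GSH libraries, against 13.8, 15.1 and 15.0 FPKM in WT libraries, a log2 change of 0.029 (SE 0.044, limma adjusted p = 0.634). Psme2 had 11.2, 10.9 and 10.2 FPKM in GSH libraries, against 11.6, 6.68 and 9.91 FPKM in WT libraries, a log2 change of 0.21 (SE 0.17, limma adjusted p = 0.379). A single library, WT 2, was low for Psme2, and without it the log2 change was 0.0022. The near-identical copy Psme2b was listed separately, at 6.65, 6.89 and 8.64 FPKM in GSH libraries and 7.46, 10.7 and 10.1 FPKM in WT libraries. WT 2, the lowest of the WT libraries for Psme2, was the highest for Psme2b, but only slightly above WT 3. In reads, Psme2 and Psme2b had 239 and 182 in WT 2, against 375 and 181 in WT 3 and 449 and 137 in WT 1. Whether the authors' counting divided reads between the 2 copies was not tested.

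**Figure D3:**
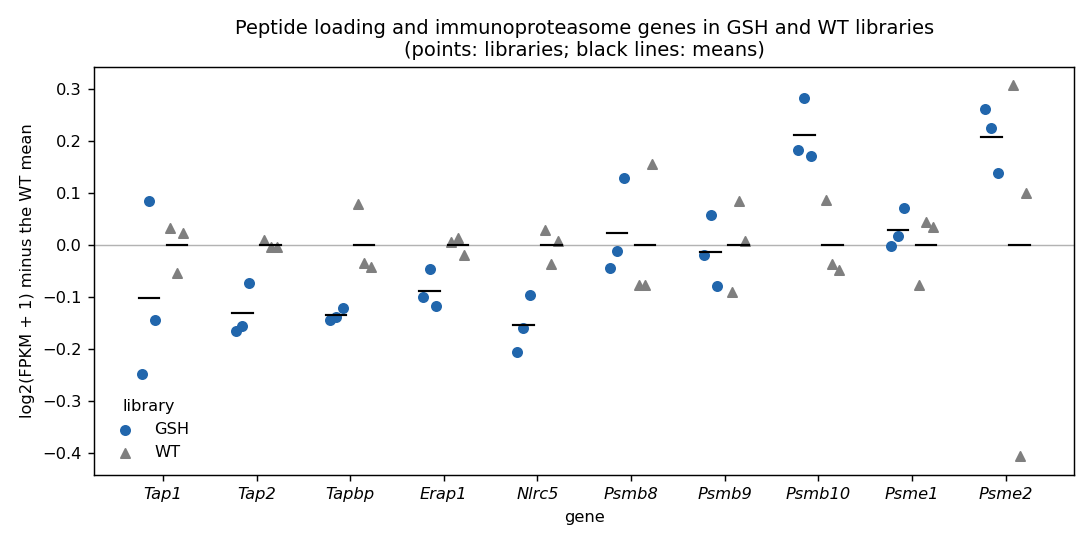
Values of log2(FPKM + 1) of the 10 genes in 3 GSH and 3 WT libraries, each minus the gene's WT mean; points are libraries and black lines are group means. GSH points lie below all WT points for Tap2, Tapbp, Erap1 and Nlrc5 and above them for Psmb10, and the low WT point of Psme2 is WT 2.

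The 4 calls were small and close to the threshold. With 1 library left out, Nlrc5 was lost without each of the 6 (limma adjusted p 0.0502 without GSH 3 to 0.123 without WT 1). Tap2 was called only without GSH 3 (adjusted p = 0.0228 with limma) and otherwise reached 0.0586 to 0.0723. Tapbp was called without WT 2 and WT 3 and reached 0.058 to 0.0797 without each other library. Psmb10 was lost without GSH 2 (0.0516), WT 2 (0.0595) and WT 3 (0.0577). With no minimum level the count of members called was 0 by limma, with 5 at an unadjusted p under 0.05, and limma voom on recovered reads without a minimum called 2 (Tapbp and Nlrc5). With each library left out the log2 changes kept their sign, at -0.16 to -0.12 for Tap2, -0.16 to -0.10 for Tapbp, -0.18 to -0.13 for Nlrc5 and 0.18 to 0.25 for Psmb10. With a term for the libraries high in secretory transcripts, Tap2 (limma adjusted p = 0.0434) and Psmb10 (0.0408) were called and Tapbp (0.0696) and Nlrc5 (0.0591) were not. Within the high libraries (GSH 2, GSH 3 and WT 3) the log2 changes were -0.11 for Tap2, -0.088 for Tapbp, -0.14 for Nlrc5 and 0.27 for Psmb10, and within the others (GSH 1, WT 1 and WT 2) they were -0.17, -0.17, -0.20 and 0.16 in the same order of genes. No member was called by limma within either set (1 in each had an unadjusted p under 0.05), but the whole table gave 0 calls among 12274 genes in the high set and 3 higher and 1 lower among 12279 in the other. In each set 1 group holds a single library that is assumed to vary like the other group.

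Psmb10 was not alone among the catalytic subunits in being higher. Psmb5 averaged 53.4 ± 3.19 FPKM in GSH libraries and 44.1 ± 4.2 FPKM in WT libraries (SD, n = 3 each; log2 change 0.27, SE 0.075, limma adjusted p = 0.0306). Psmb6 averaged 60.8 ± 0.815 FPKM in GSH libraries and 51.4 ± 3.24 FPKM in WT libraries (SD, n = 3 each; log2 change 0.24, limma adjusted p = 0.00944). Psmb7 averaged 21.7 ± 1.07 FPKM in GSH libraries and 17.8 ± 0.256 FPKM in WT libraries (SD, n = 3 each; log2 change 0.27, limma adjusted p = 0.00404). All 3 constitutive subunits were thus called higher, as was the inducible Psmb10, beside 20.6% of all genes tested. Psmb5 was lost without GSH 1, GSH 2, WT 1 or WT 2 (limma adjusted p 0.0748 to 0.0879), while Psmb6 and Psmb7 were called without each library. In ratio, the inducible subunits showed no change that a test of this size could call. The mean log2 ratio, GSH minus WT, was -0.23 for Psmb8 to Psmb5, -0.32 for Psmb9 to Psmb6 and -0.056 for Psmb10 to Psmb7. With a library left out it lay between -0.37 (without GSH 3) and -0.13 (without GSH 1) for Psmb8, between -0.60 (without WT 1) and -0.03 (without WT 2) for Psmb9, and between -0.11 (without GSH 2) and 0.00 (without GSH 1) for Psmb10. Two-sided exact permutation tests gave p = 0.3, 0.5 and 0.5 in that order (0.5 for each after Benjamini-Hochberg adjustment over 3 ratios), where the smallest p that 3 against 3 libraries allow is 0.1.

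Around these genes, 48 of 54 listed genes of class I presentation were tested in GSH against WT, and 13 were lower and 14 higher. Over all genes tested, 16.4% were called lower and 20.6% higher. The chains that carry the peptides were lower: 5 of 9 class I chain genes tested passed in that direction and 0 passed in the other (median log2 change -0.185). B2m averaged 577 ± 7.01 FPKM in GSH libraries and 677 ± 23.1 FPKM in WT libraries (SD, n = 3 each; log2 change -0.23, limma adjusted p = 0.00508). The heavy chains H2-K1 (-0.26, adjusted p = 0.0115), H2-D1 (-0.18, 0.0132) and H2-Q4 (-0.27, 0.00378) were also lower by limma, and each of these 4 chains was called whichever library was left out. The remaining chain called, H2-T23 (-0.19, limma adjusted p = 0.0209), was lost in 4 of the 6 fits with a library left out (0.0534 to 0.0592). Of 4 loading chaperones and editors, 3 were lower: the lectin chaperones Calr (log2 change -0.18) and Canx (-0.14) and the disulfide isomerase Pdia3 (-0.36), while Tapbpl, a tapasin-like editor, had -0.0065. Canx was lost in 5 of the 6 fits with a library left out (limma adjusted p up to 0.11). Reads of class I heavy chains can be divided among near-identical copies, so single values of that family are uncertain.

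Genes of proteasome caps and assembly and of peptide trimming lay mostly on the other side, where 20.6% of all genes tested were called. Of 8 cap, assembly and related proteasome genes, 4 were higher and 0 lower (median log2 change 0.132), among them the nuclear PA28 gamma gene Psme3 (0.13, limma adjusted p = 0.00886) and the PA200 activator Psme4 (0.23, adjusted p = 0.00395). Psmg4 (0.19) and Psmf1 (0.20) were also called, and each was lost without WT 1. Of 6 peptidase genes tested, 4 were higher and 0 lower, and 1 that was not called lay below every WT library in every GSH library. Among the 4, Tpp2 (0.14, limma adjusted p = 0.0394) was lost in 5 of the 6 fits with a library left out. It was also lost after median-of-ratios scaling and after rescaling without mitochondrial genes. The leucine aminopeptidase Lap3 led the higher ones, with 38.6 ± 1.06 FPKM in GSH libraries and 30.5 ± 1.05 FPKM in WT libraries (SD, n = 3 each; log2 change 0.33, limma adjusted p = 0.0021). Of 18 interferon signalling and class I transcription genes tested, 5 were lower and 3 higher, beside 16.4% and 20.6% of all genes tested. Irf1 had 7.42, 7.08 and 6.43 FPKM in GSH libraries, against 9.3, 9.73 and 9.54 FPKM in WT libraries (log2 change -0.40, SE 0.051, limma adjusted p = 0.00297). Irf9 (-0.30, adjusted p = 0.00557) and Stat2 (-0.20, adjusted p = 0.0127), partners in the interferon-stimulated complex, were also lower by limma, and the kinase Jak1 was higher (0.29, adjusted p = 0.00188). The lists were chosen with earlier results of these libraries known, so their counts describe them and lend no independent support.

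**Figure D4:**
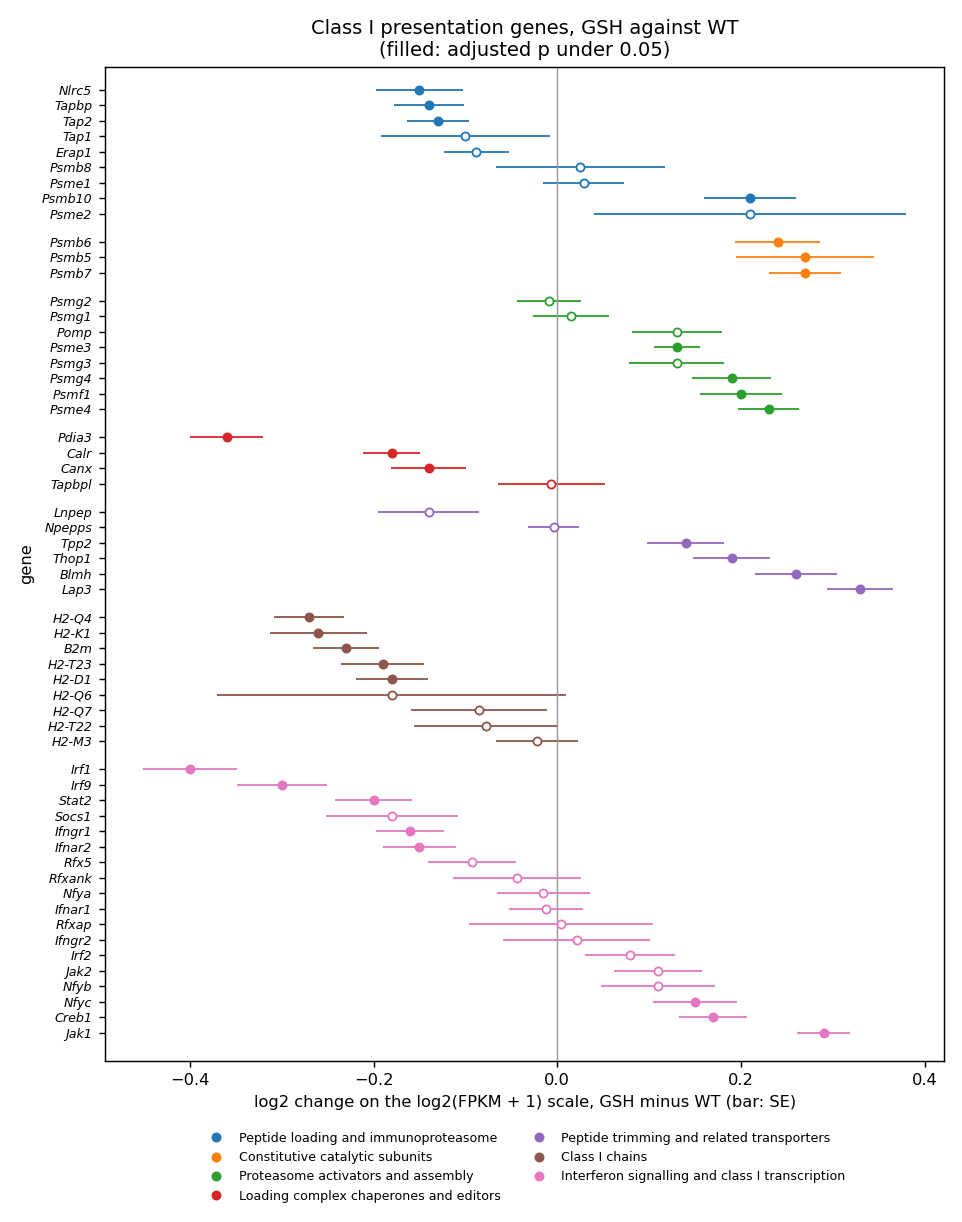
Log2 change on the log2(FPKM + 1) scale, GSH minus WT, of the 9 tested members (top block) and 48 other class I presentation genes by list; bars are SE from limma, and filled points have a limma adjusted p under 0.05. Loading genes, chaperones and class I chains lie mostly left of 0, and proteasome subunits, caps and peptidases mostly right of it.

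Among the genes whose pattern over the 6 GSH and WT libraries was most like the mean standardised pattern of the 9 tested members were Cx3cl1 (Pearson r = 0.993), Adck5 (0.982), Tmem9 (0.981) and AC132148.1 (0.977). Among the members themselves r with that mean was 0.869 for Nlrc5, 0.779 for Tap1 and 0.752 for Tap2, but 0.014 for Psme2 and -0.461 for Psmb10. The members therefore did not share a single pattern over these libraries. These r describe 6 libraries that share depth and secretory-transcript differences.

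The second designed comparison set Cas9 against Ctrl libraries, with 1 Ctrl library. All 10 members were higher in each of the 3 Cas9 libraries than in Ctrl 3, a position held by 20.1% of the 11407 genes tested, while 22.5% lay below Ctrl 3 in all 3. The same 10 lay above after median-of-ratios scaling, where 21.9% of genes did. Their median log2 change was 0.233, against -0.011 over all genes tested. No gene passed the limma test at an adjusted p of 0.05 in either direction (0% of genes called higher and 0% lower), 1.84% of genes had an unadjusted p under 0.05, and limma voom on recovered reads also called 0 genes. The spread in this fit comes from the Cas9 libraries alone, and how far Ctrl libraries vary is unknown here.

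Tap1 stood furthest from Ctrl 3, with 78.8, 103 and 106 FPKM in Cas9 libraries, against 59.8 FPKM in Ctrl 3 (log2 change 0.66, SE 0.21, limma adjusted p = 1). Cas9 1 was the nearest of the 3 to Ctrl 3. Psmb9 had 126, 137 and 136 FPKM in Cas9 libraries, against 95.9 FPKM in Ctrl 3 (log2 change 0.47, SE 0.13, limma adjusted p = 1). These were the 2 members with an unadjusted p under 0.05 (0 without Cas9 2 and 3 without Cas9 3). Psmb8 had 315, 341 and 304 FPKM in Cas9 libraries, against 248 FPKM in Ctrl 3 (log2 change 0.37, SE 0.15, limma adjusted p = 1). The other 7 members had log2 changes of 0.092 (Tapbp) to 0.24 (Tap2 and Nlrc5). Tapbp was the nearest to Ctrl 3, with 210, 209 and 197 FPKM in Cas9 libraries, against 192 FPKM in Ctrl 3. Psme1 had 328, 317 and 304 FPKM in Cas9 libraries, against 270.0 FPKM in Ctrl 3, and Psme2 had 151, 158 and 161 FPKM in Cas9 libraries, against 137 FPKM in Ctrl 3. The loading gene Tap2 and the subunit gene Psmb10 were highest in a different Cas9 library each. Tap2 had 64.9, 72.8 and 64 FPKM in Cas9 libraries, against 56.7 FPKM in Ctrl 3, and Psmb10 had 159.5, 145 and 140.2 FPKM in Cas9 libraries, against 132 FPKM in Ctrl 3. Erap1 had 24.7, 22.5 and 23.5 FPKM in Cas9 libraries, against 20.6 FPKM in Ctrl 3. Nlrc5 had 22.4, 20.9 and 20.7 FPKM in Cas9 libraries, against 17.9 FPKM in Ctrl 3, so the lowest Cas9 library of each still lay above Ctrl 3.

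Class I chains held the same position, with 11 of 11 above Ctrl 3 in all 3 Cas9 libraries (median log2 change 0.409), beside 20.1% of all genes tested. The non-classical chain H2-T23 had 297, 300 and 305 FPKM in Cas9 libraries, against 184 FPKM in Ctrl 3, and B2m had 2920, 3076 and 2907 FPKM in Cas9 libraries, against 2386 FPKM in Ctrl 3. The constitutive subunits were mixed, with Psmb6 above Ctrl 3 in all 3 Cas9 libraries and Psmb5 and Psmb7 overlapping it. Leukocyte markers went both ways. Of 22, 7 lay above Ctrl 3 in all 3 Cas9 libraries and 6 lay below, beside 20.1% and 22.5% of all genes tested. Those above included the T-cell genes Cd3d, Cd3e and Cd8a, the cytotoxic gene Nkg7 and the neutrophil genes S100a8 and S100a9. Those below included Ptprc, the macrophage genes Adgre1 and Csf1r and the T-cell gene Cd4 (mean 0.658 FPKM in Cas9 libraries, against 1.01 FPKM in Ctrl 3). Ms4a1 among those above, and Cd4 and Cd79b among those below, were under the minimum level for the test. The summed leukocyte level was 9426, 9698 and 4644 RPM in Cas9 libraries, against 8304 RPM in Ctrl 3. This sum is weighted toward abundant genes such as Lyz2 and Cd74 (means of 2028 and 1986 FPKM in Cas9 libraries, against 2.64 FPKM for Cd3e). The part of cell content in the differences between Cas9 libraries and Ctrl 3 was not tested.

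**Figure D5:**
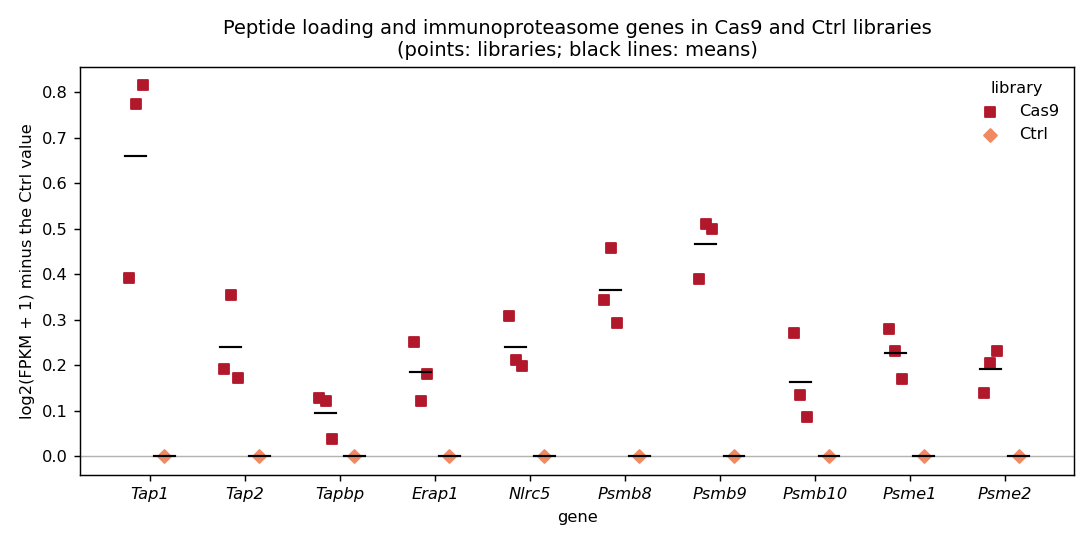
Values of log2(FPKM + 1) of the 10 genes in 3 Cas9 libraries and Ctrl 3, each minus the gene's Ctrl 3 value; points are libraries and black lines are means. All Cas9 points lie above 0, with Tap1 (mean difference 0.66) and Psmb9 (0.47) furthest from Ctrl 3; 1 Ctrl library gives no spread.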

How the data were processed

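RNA-seq values of 10 libraries were analysed. The authors deposited FPKM per gene in 2 tables, taken as FPKM from the values, since no label or header names a unit. Per the submitters' processing notes, Bowtie2 2.2.3, HISAT2 2, HTSeq 0.6.0 and build mm8 were used, with no roles given. Ensembl identifiers were given symbols from reference tables (30190 of 30803 matched). Whole reads were recovered from the FPKM steps for 100% of genes above 0 in GSH and WT libraries (within 0.01 read) and 99.8% in Cas9 and Ctrl libraries (within 0.001 read), and gave depth and RPM. Tests stayed within a table.

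The main test was limma 3.58.1 (R 4.3.3), lmFit and eBayes with trend, on log2(FPKM + 1), two-sided, over genes whose mean reached 1 FPKM, adjusted by Benjamini-Hochberg over the whole table at 0.05. Fold changes on this scale understate the change of low genes. The limma fit of GSH against WT was tested on simulated data (12277 genes). Of 50 genes changed 1.5-fold, 44 were called, and of 50 changed 1.25-fold, 27, with 9 unchanged genes called. Only genes with many reads were changed, and the simulated spread was little more than counting error. The spread of the real libraries was not simulated, so these counts do not give the power of either comparison. The alternatives were a pseudocount of 0.1, no minimum level, other scalings, a replicate block, a term for secretory transcripts, leaving out libraries, and limma voom on recovered reads, which was added after seeing the data.

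The members and lists were chosen with earlier results of these data known. All 10 members are named; pathway genes are named where they passed, and Psmb5, Psmb6, Psmb7, B2m and Irf1 always. The 5 genes most like the members were taken by Pearson r. Some genes that these rules take are not reported here. H2-T23, Ptprc, Psme2b, Zbtb22, Tapbpl and the marker genes were named after their values were seen. Nrdc was not matched.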

Additional observations from a re-analysis of the deposited data

How the results depend on the processing

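The members called lower in GSH than WT (3 in all) numbered 0 with no minimum level, 0 with the replicate block, 1 with the term for libraries high in secretory transcripts, 0 within the high libraries and 0 within the low ones, and 0 to 1 without a library. Members called higher (1 in all) numbered 0 with no minimum level, 0 with voom on recovered reads without a minimum (chosen after seeing the data), 0 within each secretory set and 0 to 1 without a library. Voom with the minimum called the same 4 members (limma adjusted p 0.00917 to 0.0191). The members' median log2 change of -0.088 moved to -0.051 with no minimum level (10 members tested, with Psmb9) and -0.121 without mitochondrial genes. The median over all genes tested moved from 0.021 to 0.003 and -0.011 in the same settings. With a library left out the members' median lay between -0.109 (without GSH 2) and -0.031 (without GSH 1). Pathway genes called, 13 lower and 14 higher, numbered 0 and 0 within each secretory set, and the higher ones numbered 9 without WT 1. Within these sets limma called 0 of 12274 genes (high libraries) and 3 higher and 1 lower of 12279 (low ones) over the whole table, so counts of 0 there say nothing of these genes. Erap1 was called lower only without mitochondrial genes (log2 change -0.12, limma adjusted p = 0.0371). Uncalled changes turned sign for Psmb8 (-0.033 with the secretory term, -0.10 within the high libraries, and -0.029 to 0.10 with a library left out, below 0 without GSH 3, WT 1 or WT 2) and for Psme1 (-0.0065 without mitochondrial genes, and -0.012 without WT 1 to 0.05 without WT 2). Over Cas9 against Ctrl, limma called 0 members under every alternative run, each of which called 0 genes over the whole table, and no ratio could be called, since the smallest exact p is 0.1, so neither speaks for stability.

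Replicate numbers were not taken to pair GSH and WT libraries: same-numbered libraries correlated at 0.479, -0.107 and 0.209 in their deviations from group means. With the replicate block the limma adjusted p was 0.0514 for Tap2, 0.0561 for Tapbp, 0.0857 for Nlrc5 and 0.0416 for Psmb10, and 2145 genes were higher and 1722 lower. No paired analysis was possible because Cas9 and Ctrl libraries share a single number here. The planned count models were not run, since the deposited values are not counts, and the Cas9 and Ctrl table lists no mitochondrial genes, so that rescaling was not run there. Depth limits Psmb9 in GSH and WT libraries, and 3 libraries a group limit changes near 10%.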
